A study of Mus musculus with 3 samples.

Results

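The transcription factors that drive fat cell differentiation and the genes that take up and store lipid were examined in PDL-L2, an immortalised cell line derived from mouse periodontal ligament fibroblasts. The 9 genes were Pparg, Cebpa, Cebpb, Cebpd, Lpl, Plin2, Cd36, Adipoq and Angptl4. Their members on the array were all probe sets whose platform annotation gave one of these symbols and no other, which selected 15 of 45101 probe sets for 9 of 18193 genes. The study compared 3 conditions with 1 array each. PDL-L2 cells were given either a siRNA pool against endoglin (siENG) and recombinant human BMP-2 at 250 ng/ml, or a control siRNA pool (siCont) and the same BMP-2, or siCont and vehicle. BMP-2 or vehicle was present for 12 h from 48 h after transfection, in differentiation medium with ascorbic acid and beta-glycerophosphate. There was no array of siENG cells with vehicle, so an effect of the knockdown without BMP-2 was not measured. Without a second array of any condition, differences could not be set against a replicate spread or tested.

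PPARγ, encoded by Pparg, is the nuclear receptor required for fat cell formation, and it binds DNA as a heterodimer with a retinoid X receptor. In cultured preadipocytes C/EBPβ and C/EBPδ are made early and activate Pparg and Cebpa, whose products then maintain each other and switch on the genes of the mature fat cell. Mesenchymal progenitors can enter either the bone or the fat lineage, and BMPs are known to act on both.

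The promoters of Plin2 and Cebpb are shown, as examples chosen after the values were seen, because Plin2 was brighter with siENG and Cebpb near constant. Promoter sequences from RefSeq (GRCm38.p6) were matched for 6 of the 9 genes, namely Pparg, Cebpa, Cebpb, Plin2, Cd36 and Adipoq, and gave 8 windows that run from 250 bases before the start site to 50 after it. Cebpd, Lpl and Angptl4 were not matched. Capitals mark, on either strand, ACGTG (a form of the core of the hypoxia response element), AGGTCA (the core element of nuclear receptors), GTCTG (part of the Smad box) and CCAAT. The other form of the hypoxia core, GCGTG, was not searched. The Plin2 window lay at chr4:86670010-86670309 on the minus strand and that of Cebpb at chr2:167688665-167688964 on the plus strand.
Plin2: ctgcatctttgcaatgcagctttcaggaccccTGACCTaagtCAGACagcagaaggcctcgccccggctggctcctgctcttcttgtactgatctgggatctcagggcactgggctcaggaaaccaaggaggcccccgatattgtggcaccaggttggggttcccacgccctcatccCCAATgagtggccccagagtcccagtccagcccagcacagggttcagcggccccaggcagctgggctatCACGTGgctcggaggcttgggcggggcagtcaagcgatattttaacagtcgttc
Cebpb: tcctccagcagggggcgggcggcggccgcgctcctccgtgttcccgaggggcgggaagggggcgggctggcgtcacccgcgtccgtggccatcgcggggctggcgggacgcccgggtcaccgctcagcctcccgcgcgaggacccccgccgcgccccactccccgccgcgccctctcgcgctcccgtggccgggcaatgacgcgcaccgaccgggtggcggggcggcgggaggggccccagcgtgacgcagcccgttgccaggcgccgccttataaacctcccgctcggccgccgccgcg
In Plin2, ACGTG was read on both strands of a single CACGTG, whose bases overlap, at positions -4 and -3 from the start site. The reverse complement of AGGTCA began at -218, that of GTCTG at -208 and CCAAT at -73. The Cebpb window held none of the 4 motifs searched, nor did that of Cebpa. The unsearched GCGTG can be read in both printed windows, in Plin2 as its reverse complement, so the hypoxia core does not set them apart. ACGTG occurred in 1 of the 8 windows, against 19.6% of 32851 promoters in the table. AGGTCA occurred in 4 of the 8 (16.3% of all), GTCTG in 4 (49.6% of all) and CCAAT in 5 (37.4% of all). These are matches of letters, and binding was not measured.

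Of 11 matched fibroblast and ligament markers 9 were at or above a signal of 23.0 on all arrays, with Col1a1 at 4361 with siENG and BMP-2, 3278 with siCont and BMP-2 and 3408 with siCont and vehicle. A signal of 23.0, which was the overall median of the 3 arrays, is used below as the limit for counting a ratio. Bacillus control probe sets, which mouse RNA does not match, reached 13.1 at most, and a signal up to 13.1 was taken as not above background. The remaining fibroblast and ligament markers, Thy1 and Aspn, were not above background on any array. Endoglin (Eng) had a signal of 108 with siENG, against 299 with siCont and BMP-2 and 286 with siCont and vehicle. Of 7 BMP response genes, 4 (Id4, Smad6, Smad7 and Hey1) had a ratio of 2 or more for BMP-2 over vehicle in siCont cells. The share of all genes past the limit was 1.8%. The list of BMP response genes was chosen with earlier results of these data known, so its count is a description. The siENG array was brighter as a whole, with a median log2 ratio of 0.21 over siCont BMP-2 and 0.22 over siCont vehicle among probe sets past the limit, whereas the 2 siCont arrays differed by 0.01. Ratios to the siENG array are therefore also given relative to these medians, and "relative" below has that meaning. As a yardstick, the robust SD of the log2 ratio over all probe sets of similar signal is given beside a ratio. It is a spread over probe sets of these arrays, real differences included, and not an error between cultures.

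Plin2, and Cebpd in its brighter probe set only, were higher on the siENG array than on either siCont array, by more than the spread of probe sets of similar signal. Cebpb was near constant. Lpl was lower on the siCont BMP-2 array than on the others in its brighter probe set, and Cebpa was just above background. Pparg, Cd36 and Adipoq were not above background on any array, and Angptl4 barely passed it on 1. The fat cell programme as a whole was therefore read only in part, at its early C/EBP regulators and at lipid handling genes that many other cells also use.

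**Figure D1:**
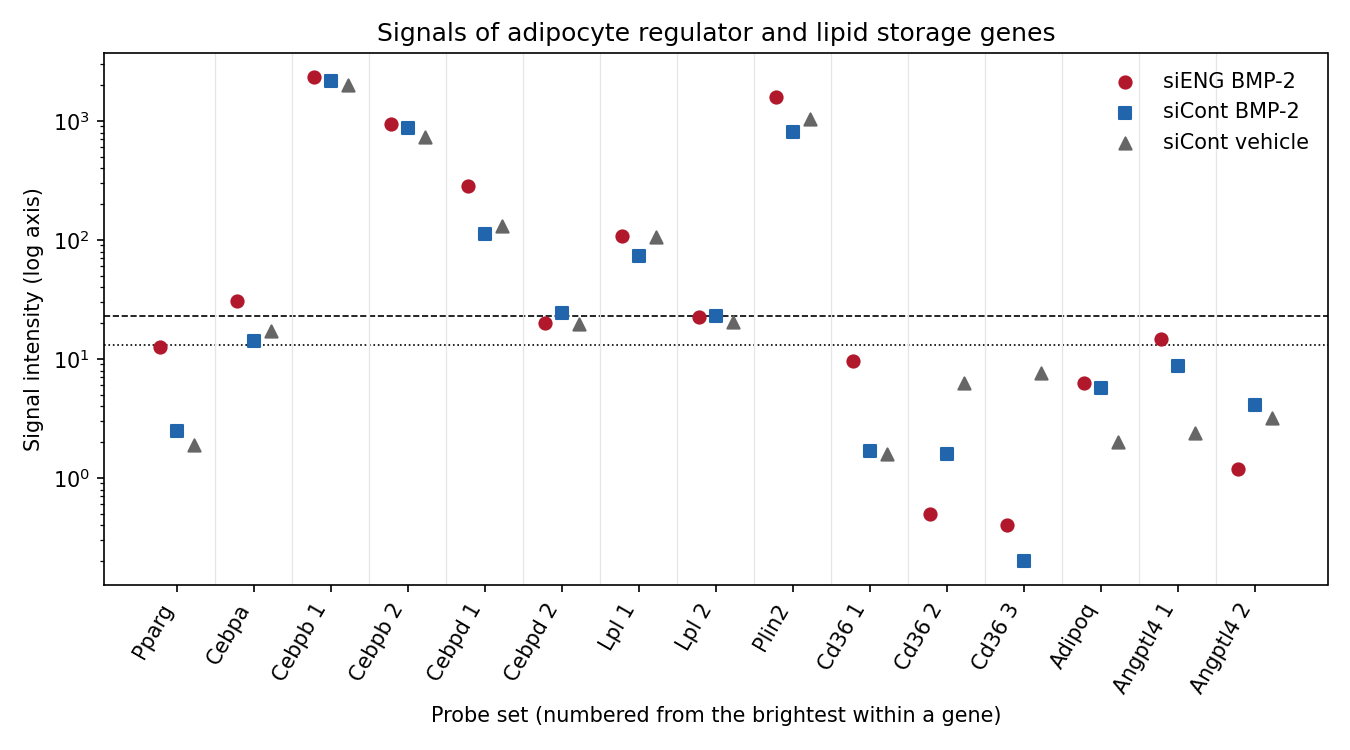
Signal intensity (log axis) of the 15 probe sets of the 9 genes on each array, with red circles for siENG BMP-2, blue squares for siCont BMP-2 and grey triangles for siCont vehicle. The dashed line marks the limit of 23.0 and the dotted line the highest Bacillus control at 13.1. Plin2, both probe sets of Cebpb and the brightest of Cebpd and Lpl lie above both lines on every array, while those of Pparg, Cd36 and Adipoq lie below the dotted line.

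Pparg, the central regulator of fat cell formation, was read by 1 probe set with a signal of 12.6 with siENG and BMP-2, 2.5 with siCont and BMP-2 and 1.9 with siCont and vehicle. No value exceeded the brightest Bacillus control, and no ratio is given. Its annotated start sites, 3 in number, cannot be told apart by this probe set. The partners and relatives of PPARγ were measured more firmly. Rxra, a retinoid X receptor that pairs with it, had signals of 220 with siENG, 152 with siCont and BMP-2 and 177 with siCont and vehicle. Rxrb, another such receptor, had 417, 241 and 299 in that order of arrays, a relative log2 ratio of 0.58 for siENG over siCont with BMP-2 (robust SD 0.33). Ppard, the widely expressed sister receptor, had 80.4, 50.8 and 53.7 (relative log2 ratio 0.45, robust SD 0.42). Ppara was not above background on any array, with signals of 2.3, 5.2 and 4.6. Rxra, Rxrb and Ppard were thus brightest on the siENG array and lowest on the siCont BMP-2 array as deposited, with differences of less than 2-fold. Of 11055 genes 66.2% were likewise highest on the siENG array and 40.0% lowest on the siCont BMP-2 array. Within the spread were Rxra for siENG over siCont with BMP-2 (relative log2 ratio 0.33, robust SD 0.34) and Ppard for BMP-2 over vehicle (-0.08, robust SD 0.34).

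Cebpa, which acts with PPARγ to maintain the fat cell state, had a signal of 30.5 with siENG and BMP-2, 14.2 with siCont and BMP-2 and 17.2 with siCont and vehicle. Both siCont signals lay below the limit and only just above background. The log2 ratio of siENG to siCont with BMP-2 was 1.10, or 0.89 relative, with a robust SD of 0.63 at similar signal. Cebpa passed the limit only through the siENG array, so a ratio above 1 was built into its being counted. Over siCont vehicle its relative log2 ratio was 0.61 (robust SD 0.56). BMP-2 over vehicle in siCont cells gave -0.28, within the robust SD of 0.71.

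Cebpb, an early regulator of adipogenesis that also serves inflammatory and osteoblast genes, had a signal of 2333 with siENG and BMP-2, 2183 with siCont and BMP-2 and 1997 with siCont and vehicle. Its second probe set read 939, 869 and 731 in the same order. The 3 arrays thus stood in the same order in both probe sets and within a narrow range. BMP-2 over vehicle in siCont cells gave a log2 ratio of 0.13 in the first (robust SD 0.11) and 0.25 in the second (robust SD 0.15), each beyond the spread at similar signal but small. The first came within that spread, at 0.092 to 0.10, under quantile, lowess and trimmed-mean scaling. Relative to all probe sets, siENG over siCont with BMP-2 gave -0.11 and -0.10, within robust SDs of 0.22 and 0.27. As deposited the sign was positive, at 0.10 and 0.11, so the direction of this small difference turned with the scaling.

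Cebpd, the other early C/EBP regulator and an immediate target of cytokines and glucocorticoids, stood apart from Cebpb. In the brighter of its probe sets the signal was 283 with siENG and BMP-2, 112 with siCont and BMP-2 and 130 with siCont and vehicle. As deposited, the siENG array was more than 2-fold above both siCont arrays, which lay close together. On the relative scale it was 2.18-fold above siCont with BMP-2 and 1.86-fold above siCont vehicle. The log2 ratio of siENG to siCont with BMP-2 was 1.33 as deposited and 1.12 relative (robust SD 0.34), and 1.71% of the 10854 genes past the limit had a ratio as high or higher. Over siCont vehicle it was 1.12 as deposited and 0.90 relative (robust SD 0.35). BMP-2 over vehicle in siCont cells gave -0.21, within the robust SD of 0.26. The second probe set of Cebpd did not show this, with signals of 20.1, 24.2 and 19.5 in the order siENG BMP-2, siCont BMP-2 and siCont vehicle. It was dim, above background on all arrays but past the limit only on the siCont BMP-2 array, and its relative log2 ratio of -0.48 lay within a robust SD of 0.63. With the mean of both probe sets the log2 ratio of siENG to siCont with BMP-2 became 0.53 as deposited, so the size of the difference rested on the brighter probe set.

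**Figure D2:**
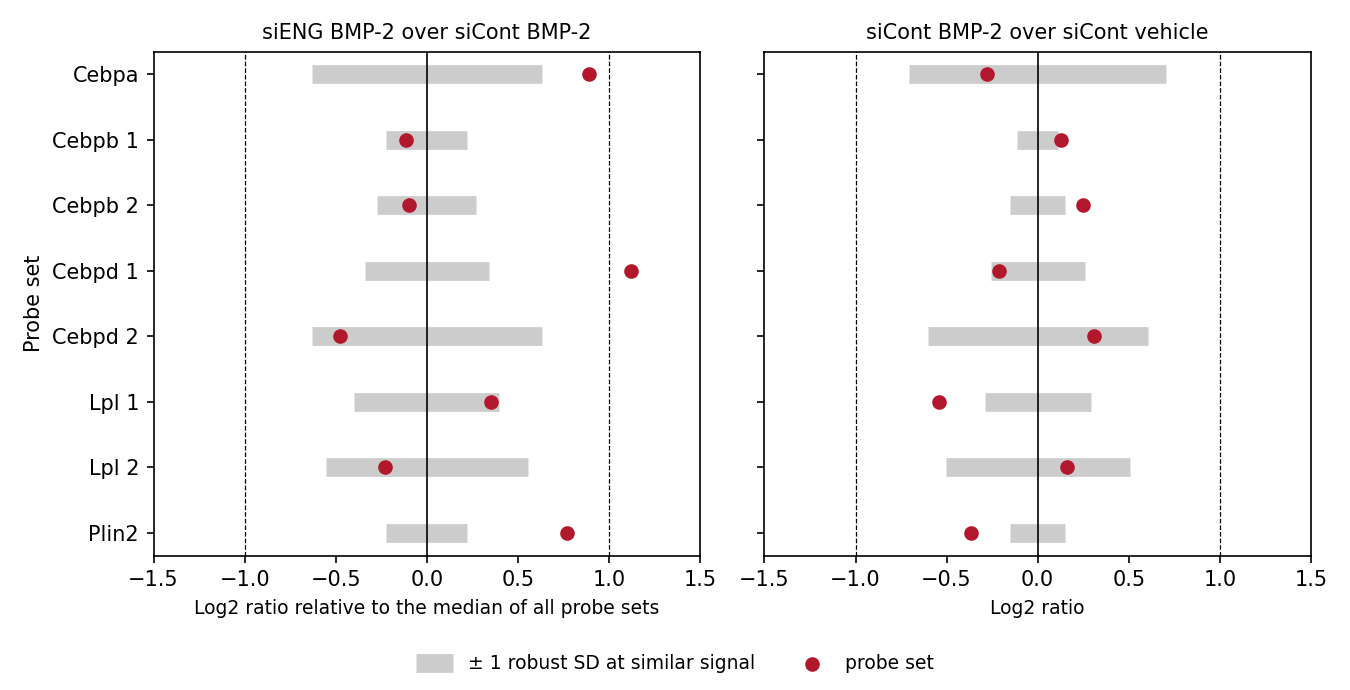
Log2 ratios of the member probe sets above background on all 3 arrays. The left panel plots the relative ratio of siENG to siCont, both with BMP-2, and the right panel siCont BMP-2 over siCont vehicle. Grey bars span 1 robust SD either side of 0 for probe sets of similar signal, dashed lines mark ratios of 2 and 0.5, and where a gene has several probe sets they are numbered from the brightest. The brighter Cebpd probe set (1.12) and Plin2 (0.77) lie far outside the grey bars on the left, as Cebpa (0.89) does by less, and Lpl (-0.54) and Plin2 (-0.37) lie outside them on the right, with both Cebpb probe sets (0.13 and 0.25) outside on the other side.

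Plin2, a coat protein of lipid droplets found in most cells that hold neutral lipid, had a signal of 1590 with siENG and BMP-2, 805 with siCont and BMP-2 and 1040 with siCont and vehicle. The 3 arrays were well separated for so bright a probe set. The log2 ratio of siENG to siCont with BMP-2 was 0.98 as deposited and 0.77 relative (robust SD 0.22), and 4.16% of genes past the limit were as high or higher. Over siCont vehicle it was 0.61 as deposited and 0.39 relative (robust SD 0.22). BMP-2 over vehicle in siCont cells gave -0.37 (robust SD 0.15), and 9.51% of genes past the limit were as low or lower. Plin2 was therefore lowest in siCont cells with BMP-2 and highest in siENG cells with BMP-2. No second probe set of Plin2 was available to set beside it.

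Lpl, the secreted lipase that frees fatty acids from circulating triglyceride, had a signal of 108 with siENG and BMP-2, 73.0 with siCont and BMP-2 and 106 with siCont and vehicle. The siENG and vehicle arrays did not stand apart, and the siCont BMP-2 array was lower than both. BMP-2 over vehicle in siCont cells gave a log2 ratio of -0.54 (robust SD 0.29), and 4.94% of genes past the limit were as low or lower. The relative log2 ratio of siENG to siCont with BMP-2 was 0.35, within the robust SD of 0.40, and that over siCont vehicle -0.20, within 0.37. The second probe set was dim, with signals of 22.7, 23.0 and 20.6 in the order siENG BMP-2, siCont BMP-2 and siCont vehicle, and showed no drop with BMP-2. Averaging both probe sets gave -0.19 on the log2 scale for BMP-2 against vehicle, smaller than the robust SD, so the lower reading rested on the brighter probe set.

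Cd36, a scavenger receptor that takes up long-chain fatty acids, was read by 3 probe sets, and none was above background on any array. Their signals ran from 0.4 to 9.7 with siENG and BMP-2, from 0.2 to 1.7 with siCont and BMP-2 and from 1.6 to 7.7 with siCont and vehicle. The probe sets differed in which array read highest. Adipoq, which encodes the fat cell hormone adiponectin, had 6.3, 5.7 and 2.0 in the same order, again within the range of the Bacillus controls. Angptl4, a secreted inhibitor of lipoprotein lipase, had 14.8 with siENG and BMP-2, 8.7 with siCont and BMP-2 and 2.4 with siCont and vehicle in its brighter probe set. Both siCont signals were not above background, so siENG was at least 1.13-fold higher than either as deposited. Relative to the brightness of the arrays this bound was under 1, and no difference was shown. Its second probe set had 1.2, 4.1 and 3.2, all within background. For Cd36 and Adipoq the arrays gave no order of the conditions.

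With siENG and BMP-2 over siCont and BMP-2, 5 of the 9 genes passed the limit, and 2 of them, Cebpa and Cebpd, had a ratio of 2 or more as deposited, where 4.04% of 10854 genes did. Of those 438 genes, 47 had a siCont signal within background and a bound under 2. The relative count was 1, Cebpd, against 2.32% of genes. A ratio of 0.5 or less was found for 0 on either scale, against 1.66% of genes as deposited and 2.7% relative. With siENG and BMP-2 over siCont and vehicle, 5 genes passed and 1, Cebpd, had a ratio of 2 or more as deposited, against 3.99% of genes, while the relative count was 0, against 2.25%. On either scale 0 were at 0.5 or less, against 1.73% of genes as deposited and 2.85% relative. With BMP-2 over vehicle in siCont cells, 4 genes passed, and 0 had a ratio of 2 or more (1.8% of 10810 genes) and 0 a ratio of 0.5 or less (1.57% of genes). The median log2 ratio of the genes that passed was -0.29 for BMP-2 over vehicle, where that of all genes was 0.01. Its sign was not stable, with 0.087 when no limit was set and 0.13 when each probe set was counted. It was 0.98 for siENG over siCont with BMP-2 (0.77 relative), where that of all genes was 0.24 (0.03 relative). Cebpa entered the medians to the siENG array only through its siENG signal, and these values are a description and not a result about the 9 genes.

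The comparisons share arrays, and a low reading on the siCont BMP-2 array lowers the ratio to vehicle and raises that of siENG. After allowing for the brightness of the arrays, 4 of the 5 genes past the limit on any array, Cebpa, Cebpd, Lpl and Plin2, read lowest on the siCont BMP-2 array, as did 31.6% of 11055 genes. Cebpa, Cebpd and Plin2 read highest on the siENG array, as did 42.1% of genes. For Cebpa, which reached the limit on the siENG array alone, reading highest there was fixed by the limit, and its place in both counts is a description. The ratio of siENG over siCont vehicle, which does not use the siCont BMP-2 array, gave Cebpd a relative log2 ratio of 0.90 and Plin2 one of 0.39. Lpl stood at -0.20 there.

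Genes of the mature fat cell were mostly not above background. Of 12 such genes matched, 7 were within the range of the Bacillus controls on all arrays, among them Lep, the gene for leptin, with signals of 1.7 with siENG and BMP-2, 1.3 with siCont and BMP-2 and 2.0 with siCont and vehicle. Fabp4, a cytosolic fatty acid carrier of fat cells, macrophages and some endothelial cells, was an exception. Its signals were 252, 397 and 261 in the same order. The siCont BMP-2 array was the high one, with a log2 ratio of 0.60 for BMP-2 over vehicle (robust SD 0.17) and a relative log2 ratio of -0.86 for siENG over siCont with BMP-2 (robust SD 0.33), the opposite order to Plin2 and Lpl. Plin4, a further droplet coat protein, had 508, 477 and 589. Its log2 ratio was -0.30 for BMP-2 over vehicle (robust SD 0.15) and -0.44 relative for siENG over siCont vehicle (robust SD 0.28), and -0.12 relative for siENG over siCont with BMP-2 (robust SD 0.30). The insulin-regulated glucose transporter Slc2a4 had 46.7, 26.0 and 14.9, with a relative log2 ratio of 1.43 for siENG over siCont vehicle (robust SD 0.56). Its vehicle signal lay below the limit and just above background. Retn, which encodes resistin, was above background with siENG alone, at 24.5, and at least 1.87-fold higher than in either siCont condition as deposited, or 1.62-fold and 1.60-fold relative (siCont BMP-2 and siCont vehicle). Of the 4 genes of this list past the limit for siENG over siCont with BMP-2, 0 had a measured ratio of 2 or more and 0 were at 0.5 or less, and for Retn only the bound is known. The shares of all genes as deposited, genes with only a bound included, were 4.04% at 2 or more and 1.66% at 0.5 or less. On the relative scale they were 2.32% and 2.7%.

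Past the limit were 24 other positive and negative regulators of adipogenesis. For siENG over siCont with BMP-2, 3 of them had a ratio of 2 or more on either scale. The shares of all genes were 4.04% as deposited and 2.32% relative. On either scale 0 were at 0.5 or less, against 1.66% of all genes as deposited and 2.7% relative. Ddit3 encodes CHOP, a C/EBP family member that blocks C/EBP binding by forming dimers and is made in endoplasmic reticulum stress. It had a signal of 1468 with siENG and BMP-2, 535 with siCont and BMP-2 and 530 with siCont and vehicle, a relative log2 ratio of 1.25 (robust SD 0.27). Cebpg, another family member that lacks an activation domain, had 391, 322 and 329 and a relative log2 ratio of 0.07. Of this family the siENG array thus stood out for Ddit3 and for the brighter probe set of Cebpd, and not for Cebpb or Cebpg. Cebpa was also higher there, at a relative log2 ratio of 0.89 (robust SD 0.63), but passed the limit only through that array. Klf2, a repressor of Pparg, had 167 with siENG and BMP-2, 64.0 with siCont and BMP-2 and 144 with siCont and vehicle, and the coactivator gene Ppargc1b had 56.2, 22.8 and 46.1. Both were at a ratio of 0.5 or less for BMP-2 over vehicle, the 2 genes of the list that were, against 1.57% of all genes. Neither stood apart between siENG and vehicle, with relative log2 ratios of -0.01 and 0.06. Klf15, which promotes adipogenesis, had 79.3, 51.6 and 29.5, a relative log2 ratio of 1.21 for siENG over siCont vehicle. Dlk1, the preadipocyte inhibitor, had 15.7 with siENG and BMP-2, 5.3 with siCont and BMP-2 and 20.2 with siCont and vehicle, and was not above background on the siCont BMP-2 array. Zfp423, a marker of committed preadipocytes, was not above background on any array.

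Lipid droplet and triglyceride genes showed Hilpda beside Plin2. Hilpda, a droplet protein that inhibits the lipase ATGL and is induced by low oxygen, had a signal of 351 with siENG and BMP-2, 92.8 with siCont and BMP-2 and 106 with siCont and vehicle. The siENG array was the high one, with a relative log2 ratio of 1.71 over siCont with BMP-2 and 1.51 over siCont vehicle (robust SD 0.34 for the first). Pnpla2, which encodes ATGL itself, had 168, 109 and 157, low with BMP-2 in siCont cells like Lpl. Dgat1, the last enzyme of triglyceride synthesis, had 356, 225 and 281, and the phosphatidate phosphatase Lpin1 had 408, 210 and 180. Of 16 genes of this list past the limit, 1 (Hilpda) had a measured ratio of 2 or more for siENG over siCont with BMP-2, on either scale, and 0 were at 0.5 or less. The shares of all genes at 2 or more were 4.04% as deposited and 2.32% relative, genes with only a bound included. Those at 0.5 or less were 1.66% and 2.7%. Cideb, a droplet-associated protein, was above background with siENG alone at 23.8, and only a bound is known, at least 1.82-fold over siCont with BMP-2 as deposited and 1.57-fold relative. The median relative log2 ratio of the list was 0.30, where that of all genes was 0.03. Cideb entered it only through its siENG signal. The shift was not particular to this list, with medians of 0.26 for mature fat cell genes and 0.23 for other adipogenesis regulators. Fatty acid oxidation genes had 0.20, and genes of fatty acid uptake and lipase partners -0.11.

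Partners of lipoprotein lipase and genes of fatty acid uptake were also read. Lmf1, which helps the lipase to fold, had signals of 137 with siENG and BMP-2, 92.2 with siCont and BMP-2 and 101 with siCont and vehicle. Gpihbp1, which anchors the lipase to capillaries, was above background with siENG alone at 23.2, at least 1.77-fold higher than in either siCont condition as deposited, or 1.53-fold and 1.52-fold relative (siCont BMP-2 and siCont vehicle). The acyl-CoA synthetase Slc27a3 had 32.4, 14.2 and 46.3 in the order siENG BMP-2, siCont BMP-2 and siCont vehicle, low with BMP-2 in siCont cells at a log2 ratio of -1.71 (robust SD 0.51). Of 15 genes of this list past the limit, 1 (Slc27a3) had a measured ratio of 2 or more for siENG over siCont with BMP-2 as deposited, and 0 did so on the relative scale. The shares of all genes were 4.04% as deposited and 2.32% relative, genes with only a bound included. Among the genes named from these lists Retn, Ppargc1b, Cideb, Gpihbp1 and Slc27a3, like Cebpa, reached the limit for siENG over siCont with BMP-2 only through their siENG signal, so a ratio above 1 was built into their being counted. For siENG over siCont vehicle the same held for Retn, Slc2a4, Cideb and Gpihbp1. Of 11 other PPAR target genes of fatty acid oxidation past the limit, 0 were at 2-fold or above and 0 at 0.5 or less in any of the 3 comparisons. The shares of all genes ran from 1.57% to 4.04%. The highest of the 11 for siENG over siCont with BMP-2 was Acadl, a mitochondrial acyl-CoA dehydrogenase, with signals of 794, 415 and 484 in the same order of arrays and a relative log2 ratio of 0.73 (robust SD 0.27).

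Many of the listed genes induced by low oxygen were high on the siENG array, as Plin2 and Hilpda were. Of 22 hypoxia-responsive genes past the limit, 15 had a ratio of 2 or more for siENG over siCont with BMP-2 as deposited. The share of all genes was 4.04%. Relative to all probe sets 12 did, against 2.32% of all genes. Because the list was chosen with earlier results of these data known, these counts are a description. On either scale 0 were at 0.5 or less, against 1.66% as deposited and 2.7% relative. Ankrd37 and Car9 reached the limit only through their siENG signal, which built in a ratio above 1 as deposited. Ankrd37 is among the 15 and the 12. The median relative log2 ratio of the 22 genes was 1.09. Bnip3, a mitophagy receptor, had a signal of 3342 with siENG and BMP-2, 450 with siCont and BMP-2 and 595 with siCont and vehicle. Not every gene of the list was high there, since Pfkfb4 had a relative log2 ratio of -0.88. Angptl4, which low oxygen is known to induce in other cells, remained near background on the same array. The part of low oxygen signalling in the values of Plin2, Hilpda and Cebpd was not tested.

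Marker genes of other cells that store or take up lipid were also examined. Among 9 leukocyte and macrophage markers the summed signal was 285 with siENG and BMP-2, 234 with siCont and BMP-2 and 224 with siCont and vehicle. Of these markers 3 (Ptprc, Itgam and Cd3e) were not above background on any array, and 3 (Cd68, Csf1r and Cd14) reached the limit on all arrays. Lyz2, Adgre1 and Fcgr1 were above background on some arrays only. Csf1r had signals of 47.7, 31.4 and 40.6 in the same order of arrays, and Cd14 had 51.9, 76.3 and 70.9. Cd68, a lysosomal protein that is not limited to macrophages, had signals of 118, 50.0 and 71.0, the same order of arrays as Plin2. Among 5 fat cell markers the summed signal was 293, 409 and 281, most of it from Fabp4, with Adipoq, Cidec and Lep at background. Of 6 endothelial markers 5 were at background on all arrays. In such bulk RNA, more cells of a kind and more RNA per cell cannot be told apart.

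**Figure D3:**
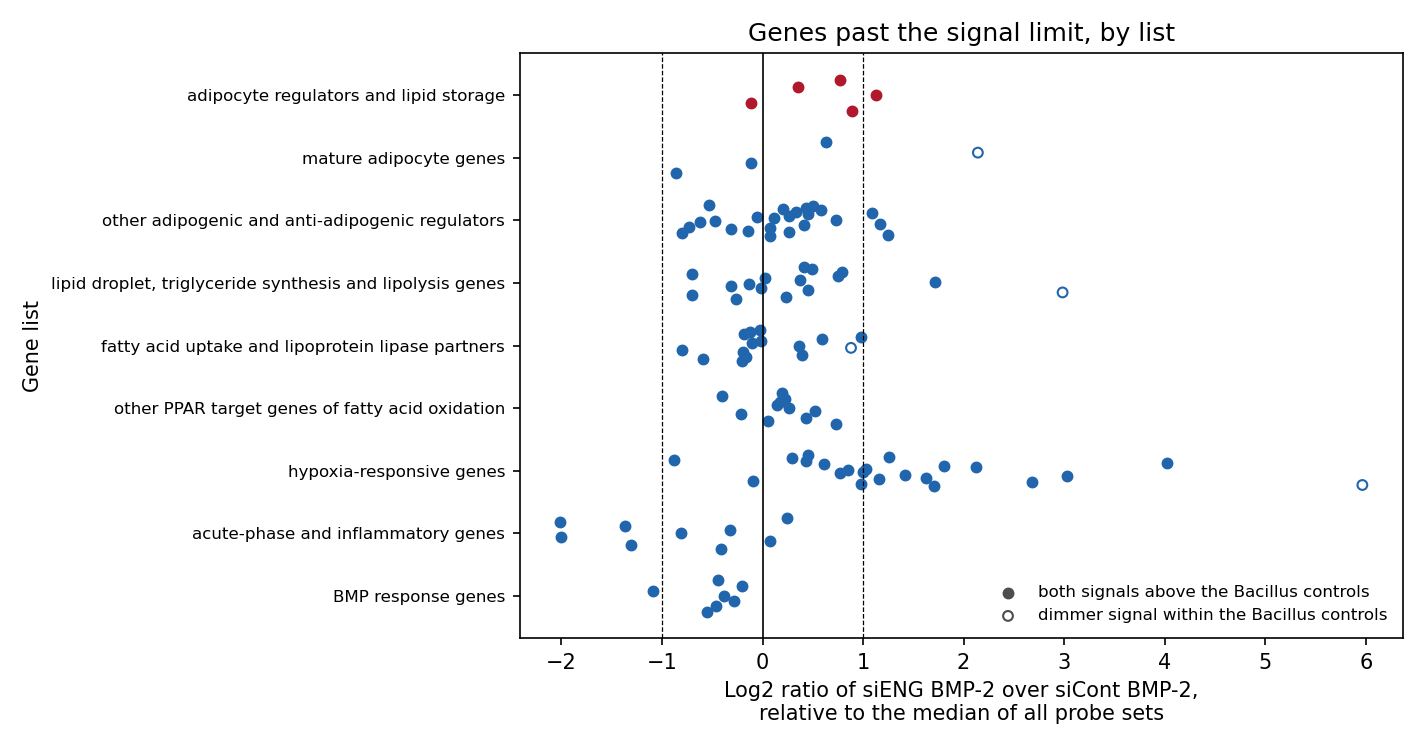
Relative log2 ratio between the siENG and siCont arrays with BMP-2, with 1 point per gene past the limit and 1 row per gene list (red for the 9 member genes, blue for the others). Open circles have a dimmer signal within the Bacillus controls, so only a bound, and dashed lines mark ratios of 2 and 0.5. Hypoxia-responsive genes reach far to the right, while fatty acid oxidation genes all lie between the dashed lines.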

How the data were processed

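Total RNA was labelled with biotin and read on Affymetrix Mouse Genome 430 2.0 arrays, 1 per condition. The intensity values deposited by the authors are linear signals, 1 for each probe set on an array. GCOS 1.4 is named in the submitters' processing notes. The signal algorithm and its scaling were not given in the sources used here. Any signal listed at 0 was replaced by 0.1, and 64 control probe sets were left out of ratios. The platform annotation paired 34945 probe sets with 1 symbol and 932 with several, and 9160 were unnamed. Older symbols were updated by gene identifier (RefSeq, GRCm38.p6). A gene was represented by its probe set of highest mean log2 signal. A ratio was counted where the higher of the 2 signals reached 23.0, the median over all arrays.

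The robust SD was 1.4826 times the median absolute deviation of log2 ratios of all probe sets, in 20 bins of mean log2 signal. The number of arrays limits the precision. The 9 genes, the gene lists and the rule for genes named (every member, up to 4 genes past a ratio of 2 or 0.5 in each direction per list, and some fixed regulators, lipases and droplet genes) were chosen with earlier results of these data known. Pfkfb4, Acadl, Plin4, Rxrb, Lep, Col1a1, Thy1, Aspn, Cd68, Car9, Csf1r, Cd14, Adgre1, Fcgr1, Ccl2, Orm1 and Saa3 were named after their values were seen. Plin1 was not analysed here. Alternatives were other signal limits, 4 scalings and 2 ways to treat several probe sets. Ratios were tested on simulated data. Python 3.11.15 was used with numpy 2.4.6, pandas 2.3.3, scipy 1.17.1, statsmodels 0.14.6 and matplotlib 3.10.9.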

Additional observations from a re-analysis of the deposited data

How the results depend on the processing

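No paired analysis was possible because each condition had 1 array. A value was taken as moved where it differed by more than the robust SD of probe sets of similar signal, or a count by more than 1.5 times. The count of member genes at a ratio of 2 or more depended on the signal limit and the scaling. Without a limit it was 4 for siENG over siCont with BMP-2, 5 for siENG over siCont vehicle and 2 for BMP-2 over vehicle. For siENG over siCont with BMP-2 the count was 1 with the limit at the 75th percentile, and 1 each with median centring, lowess centring, scaling to one trimmed mean and the mean over probe sets. For siENG over siCont vehicle it was 0 with median centring, quantile normalization, lowess centring, scaling to one trimmed mean and the mean over probe sets. The median log2 ratio for BMP-2 over vehicle was 0.087 without a limit, -0.072 with the mean over probe sets and 0.13 with each probe set counted. For siENG over siCont with BMP-2 it was 0.53 with the mean over probe sets and 0.34 with each counted, and for siENG over siCont vehicle 1.12 without a limit. The counts at a ratio of 0.5 or less did not move under any alternative run. Over single genes, 14 values moved and 56 did not. The sign turned in 12, all of ratios smaller than 2-fold. These were Cebpb for siENG over siCont with BMP-2 (to between -0.13 and -0.11) and over siCont vehicle (to between -0.042 and -0.013), Lpl for siENG over siCont vehicle (to between -0.22 and -0.18) and Cebpd for BMP-2 over vehicle (to 0.048 with the mean over probe sets). The log2 ratio of siENG to siCont with BMP-2 ran from 0.53 to 1.12 for Cebpd and from 0.76 to 0.98 for Plin2 over the scalings and the mean over probe sets. Below a signal of about 23.0 the arrays did not settle an order of conditions.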

Other observations

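Acute-phase and inflammatory genes, several of which are known to be bound by C/EBP factors, did not share the order of Cebpd. Of 9 such genes past the limit, 0 reached a ratio of 2 and 4 (Orm2, Il6, Ptgs2 and Cxcl1) were at 0.5 or less for siENG over siCont with BMP-2, on either scale, where the share of all genes was 1.66% as deposited and 2.7% on the relative scale. Il6, an inflammatory cytokine, had a signal of 56.7 with siENG and BMP-2, 197 with siCont and BMP-2 and 199 with siCont and vehicle. The chemokine gene Cxcl1 had 149, 318 and 341 in the same order of arrays. Haptoglobin (Hp) had 46.5, 38.2 and 162, low on both BMP-2 arrays against siCont vehicle. Without a siENG vehicle array, the effect of BMP-2 on Hp in siENG cells could not be read. Orm2, an acute-phase glycoprotein gene, had 97.8, 218 and 85.9, high in siCont cells with BMP-2 alone. Ptgs2 had 194, 679 and 316 in that order of arrays. Orm2 and Ptgs2 had a ratio of 2 or more for BMP-2 over vehicle, against 1.8% of all genes. Il6, Cxcl1, Ptgs2, Lcn2 and Ccl2 were lowest on the siENG array on either scale, where the brighter probe set of Cebpd was highest. Hp, Orm1 and Saa3 were not, and Orm2 was so only on the relative scale, at a log2 ratio of -0.03 to siCont vehicle. This list was also chosen with earlier results of these data known, so its counts are a description. The relation to Cebpd was not tested.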
